A study of Mus musculus with 29 samples.

Results

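Plasma cells are the antibody-secreting end of the B cell lineage, and the genes described here are 7 that mark or build that state: Jchain, Sdc1, Prdm1, Xbp1, Irf4, Tnfrsf17 and Mzb1. Members were taken as the probe sets annotated to exactly 1 of these symbols, with the brightest probe set over the arrays of a tissue standing for the gene. By that rule 6 of the 7 genes were measured, through 13 probe sets, among 12394 genes in all, and Mzb1 was not analysed here. A probe set is the group of short probes that reads 1 transcript on the array, and its level is given on the log2 scale, where a difference of 1 is a doubling.

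IRF4 and BLIMP1, the product of Prdm1, are the transcription factors that turn an activated B cell into a plasma cell, and BLIMP1 shuts down genes of B cell identity such as Pax5 and Bcl6. XBP1, whose messenger RNA is spliced in the cytoplasm by the stress sensor IRE1, enlarges the endoplasmic reticulum that folds and exports immunoglobulin. The J chain joins immunoglobulin units into IgM pentamers and IgA dimers, syndecan-1 (Sdc1, or CD138) is the surface proteoglycan by which plasma cells are sorted, and BCMA (Tnfrsf17) receives the survival signals APRIL and BAFF that long-lived plasma cells depend on, chiefly in the bone marrow.

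The study followed mice carrying MLL-ENL-ERtm, a leukaemia fusion of MLL and ENL that was tied to a tamoxifen-responsive part of the estrogen receptor, so that tamoxifen in the feed keeps it active. All mice, wild type included, received chow with 300 mg/kg tamoxifen. Bone marrow came from fusion mice in a proliferation state (4 arrays, 7 months of tamoxifen), in transition to senescence (4 arrays, 7 to 8 months) and in senescence (3 arrays, 8 months), and from wild-type mice (4 arrays, 7 or 8 months). Spleen came from fusion mice at an early stage (3 arrays, 7 months), at progression (3 arrays, 9 or 10 months) and at a terminal stage (3 arrays, 19, 21 and 23 months), and from wild-type mice (5 arrays, 8, 9, 11, 11 and 24 months). Fusion mice had a myeloproliferative disease per the labels, and the sources used here do not give the promoter that drives the fusion, the strain or the age at the start of feeding. The labels call the arrays biological replicates and name no mice.

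Whole tissue was measured, so the cells behind a level are not known. Fewer plasma cells, less transcript per plasma cell and a change in other cells that make it cannot be told apart below. The 5 granulocyte precursor markers averaged 12.0 to 13.4 in the 9 fusion spleens, against 8.40 to 9.85 in the 5 wild-type spleens, and 13.4 to 14.3 in fusion marrow, against 13.5 to 13.95 in wild-type marrow. The third wild-type spleen carried pancreas transcripts, with an acinar marker mean of 12.1, against 5.23 as the lowest wild-type value, and the first early spleen carried fewer (7.92). Progression and terminal spleens lay at 5.26 to 5.69. The remaining wild-type spleens lay between 5.23 and 12.1. Some of them may carry pancreas transcripts too, and they were not left out together with the third. The first proliferation marrow carried fat and muscle transcripts (a marker mean 2.99 above wild type). Xist, the X-linked transcript of female cells, was low in all 3 progression spleens, high in all 3 terminal spleens and mixed in the others (high in 1 of 3 early spleens and in 2 of 5 wild-type spleens). In marrow it was high in all 4 proliferation and all 4 transition arrays, in 1 of 3 senescence arrays and in 2 of 4 wild-type arrays.

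The promoters of 3 members are shown because Jchain and Irf4 were low in fusion spleen while Xbp1 was not. Each run is the 250 bases before the annotated start, from RefSeq on GRCm38.p6, read 5′ to 3′ on the strand of the gene, with matches to any of 4 searched motifs in capitals. Jchain lies on the minus strand (chr5:88527898-88528147), Irf4 on the plus strand (chr13:30748983-30749232) and Xbp1 on the plus strand (chr11:5520391-5520640).
Jchain: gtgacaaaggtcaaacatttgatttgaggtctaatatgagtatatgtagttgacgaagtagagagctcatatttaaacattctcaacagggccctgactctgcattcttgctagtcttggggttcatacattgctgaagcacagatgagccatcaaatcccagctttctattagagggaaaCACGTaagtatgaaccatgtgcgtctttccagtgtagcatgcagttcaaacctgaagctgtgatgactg
Irf4: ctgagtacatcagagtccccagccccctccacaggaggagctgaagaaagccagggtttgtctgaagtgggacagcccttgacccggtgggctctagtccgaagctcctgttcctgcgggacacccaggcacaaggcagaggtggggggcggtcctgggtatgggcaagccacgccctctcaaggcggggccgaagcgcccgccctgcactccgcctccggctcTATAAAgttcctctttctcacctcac
Xbp1: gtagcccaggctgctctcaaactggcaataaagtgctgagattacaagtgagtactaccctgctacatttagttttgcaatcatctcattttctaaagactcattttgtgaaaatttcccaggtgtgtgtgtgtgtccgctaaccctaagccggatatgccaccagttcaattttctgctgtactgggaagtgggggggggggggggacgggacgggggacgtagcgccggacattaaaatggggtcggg

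The motifs, searched on both strands, were the octamer ATGCAAAT, the paired interferon regulatory factor motif (2 GAAA runs separated by any 2 bases), the ACGTG core of sites for XBP1 and related factors, and the TATA box TATAAA. The capitals in Jchain are the ACGTG core on the opposite strand, read as CACGT, at positions -69 to -65, and those in Irf4 are a TATA box at -26 to -21. Of 32851 annotated windows of this length, 16.6% held the ACGTG core, 12.4% the TATA box, 2.98% the paired motif and 1.6% the octamer, so both matches are common ones. The Xbp1 and Sdc1 windows held none of these letters. In Tnfrsf17 the window held a TATA box and a paired motif, and the Prdm1 window held no match, but both windows overlap the annotated gene and are not shown. A match is a run of letters and was not tested as a binding site.

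In the spleen 4 of the 6 plasma cell genes fell with the fusion: Irf4, Jchain, Tnfrsf17 and Prdm1. Jchain, Irf4 and Tnfrsf17 had every fusion array below every wild-type array, as had 6.66% of all genes. Averaged over the 3 stages, Irf4 fell 3.64-fold, Jchain 2.36-fold and Prdm1 2.19-fold, while Xbp1 (0.15) and Sdc1 (-0.73) did not pass. Over all genes, 16.4% were lower in this comparison and the median difference was 0.04, against a median of -1.17 over the 6 members. Calls are adjusted p-values under 0.05 from limma, with Benjamini-Hochberg adjustment over all 12394 genes. The 3 stages share the same 5 wild-type arrays, so their differences are not independent. Wild-type spleens had 8, 9, 11, 11 and 24 months of tamoxifen and terminal spleens 19, 21 and 23. Stage and time on tamoxifen therefore cannot be told apart.

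**Figure D1:**
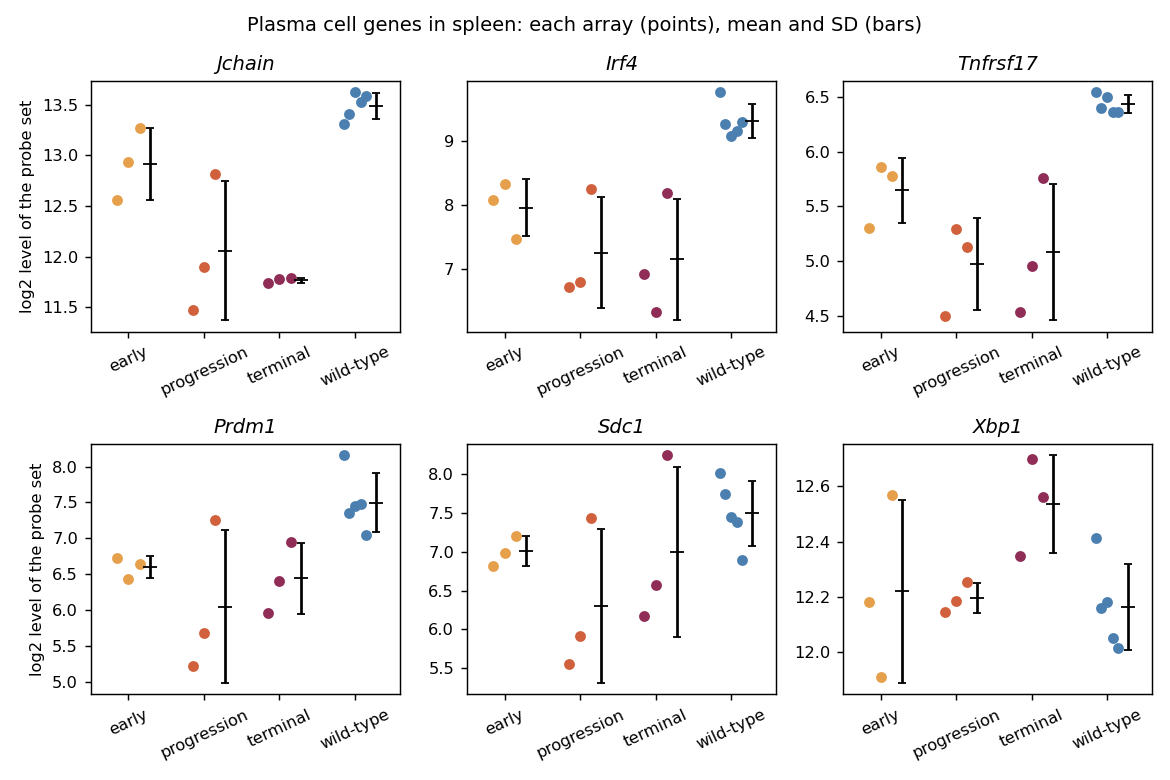
Log2 level of each measured plasma cell gene in each spleen array (points), with the group mean and SD beside them, for early, progression, terminal and wild-type spleens. Every fusion array of Irf4, Jchain and Tnfrsf17 lies below every wild-type array, while Xbp1 spans 11.9 to 12.7 with the groups mixed; each panel has its own level axis, which does not start at 0.

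Jchain, the polymeric antibody linker, was at 12.56, 12.94 and 13.26 in early spleens, at 11.47, 11.89 and 12.81 in progression spleens and at 11.74, 11.78 and 11.79 in terminal spleens, against 13.31, 13.41, 13.53, 13.58 and 13.62 in wild-type spleens. No fusion array reached the lowest wild-type array, and the terminal arrays lay close together. The difference from wild type was -0.57 ± 0.23 (SE) at the early stage (limma, adjusted p = 0.12), -1.43 ± 0.23 at progression (limma, adjusted p = 0.00078) and -1.72 ± 0.23 at the terminal stage (limma, adjusted p = 6.9e-05). Between fusion stages, terminal spleens were lower than early spleens by a log2 difference of -1.15 ± 0.26 (limma, adjusted p = 0.019), where 3.88% of all genes were lower. Every terminal array lay below every early array, as for 11% of all genes. Early spleens had 7 months of tamoxifen and terminal spleens 19, 21 and 23, so stage and time cannot be told apart. Jchain was the single member with a call between stages. That call was lost with Xist as a covariate (-1.01, limma, adjusted p = 0.076) and with the Gapdh 3′ to 5′ difference, a measure of RNA integrity, as a covariate (-1.04, limma, adjusted p = 0.074). Leaving out 1 array ended it too: without the second early array the adjusted p from limma was 0.076, without the first terminal array 0.056 and without the second terminal array 0.055.

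Irf4, the factor needed at the first step to the plasma cell, was at 7.46, 8.09 and 8.32 in early spleens, at 6.71, 6.804 and 8.26 in progression spleens and at 6.33, 6.93 and 8.19 in terminal spleens, against 9.09, 9.16, 9.27, 9.31 and 9.76 in wild-type spleens. The groups did not overlap at any stage, as was so for 12.6% of all genes in early, 11.7% in progression and 18.2% in terminal spleen in this direction, and 1 array at progression and 1 at the terminal stage stood over 1 log2 unit above the other 2 of their stage. Irf4 was 2.57-fold lower at the early stage (-1.36 ± 0.40, limma, adjusted p = 0.033), 4.17-fold lower at progression (-2.06 ± 0.40, limma, adjusted p = 0.0025) and 4.50-fold lower at the terminal stage (-2.17 ± 0.40, limma, adjusted p = 0.00079). The mean over the stages was -1.86 ± 0.31 (limma, adjusted p = 0.00034), the largest difference among the 6 members. IRF4 is also made by activated T cells and some dendritic cells, whose markers are given further on.

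Tnfrsf17, the BCMA receptor, was at 5.30, 5.77 and 5.86 in early spleens, at 4.49, 5.13 and 5.29 in progression spleens and at 4.53, 4.95 and 5.76 in terminal spleens, against 6.36, 6.36, 6.40, 6.50 and 6.54 in wild-type spleens. The fusion arrays all lay below wild type. Several lay close to the lower quartile of all probe sets (4.56 to 4.81 in spleen), where levels have little meaning, so no fold is given. The log2 difference was -0.79 ± 0.24 at the early stage (limma, adjusted p = 0.039), -1.46 ± 0.24 at progression (limma, adjusted p = 0.0008) and -1.35 ± 0.24 at the terminal stage (limma, adjusted p = 0.00059).

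Prdm1, which encodes BLIMP1, was at 6.43, 6.65 and 6.73 in early spleens, at 5.22, 5.68 and 7.25 in progression spleens and at 5.97, 6.41 and 6.95 in terminal spleens, against 7.04, 7.35, 7.44, 7.47 and 8.16 in wild-type spleens. The third progression array lay inside the wild-type range, and the others lay below it. Prdm1 was 2.72-fold lower at progression (-1.45 ± 0.37, limma, adjusted p = 0.015) and 2.07-fold lower at the terminal stage (-1.05 ± 0.37, limma, adjusted p = 0.042). At the early stage the difference was -0.89 ± 0.37 (limma, adjusted p = 0.13). No early array overlapped wild type, as was so for 12.6% of all genes in this direction.

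Sdc1, the CD138 proteoglycan, was at 6.82, 6.99 and 7.20 in early spleens, at 5.56, 5.92 and 7.43 in progression spleens and at 6.18, 6.57 and 8.24 in terminal spleens, against 6.89, 7.39, 7.44, 7.74 and 8.00 in wild-type spleens. The highest of all 14 spleens was a terminal one, the same array that was highest of its stage for Irf4, Prdm1 and Tnfrsf17. The mean difference over the stages was -0.73 ± 0.35 (limma, adjusted p = 0.13). It was -0.49 ± 0.45 at the early stage (limma, adjusted p = 0.52), -1.19 ± 0.45 at progression (limma, adjusted p = 0.082) and -0.50 ± 0.45 at the terminal stage (limma, adjusted p = 0.44). Another probe set of Sdc1, 1437279_x_at, passed over the stages with all arrays in, as given further on. For the brightest probe set no difference from wild type passed with all arrays in, but some passed with 1 array left out. Without the third progression array the progression difference was -1.75 (limma, adjusted p = 0.0094) and the mean over the stages -0.91 (limma, adjusted p = 0.028). Without the third terminal array that mean was -0.93 (limma, adjusted p = 0.021).

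Xbp1, the factor behind the enlarged endoplasmic reticulum, was at 11.91, 12.18 and 12.57 in early spleens, at 12.15, 12.18 and 12.25 in progression spleens and at 12.35, 12.56 and 12.70 in terminal spleens, against 12.01, 12.05, 12.16, 12.18 and 12.41 in wild-type spleens. It was the single measured member whose mean was not below wild type at any stage. The difference was 0.06 ± 0.14 at the early stage (limma, adjusted p = 0.84), 0.03 ± 0.14 at progression (limma, adjusted p = 0.9) and 0.37 ± 0.14 at the terminal stage (limma, adjusted p = 0.06). The terminal value passed the threshold under 6 of 12 other settings, with log2 differences of 0.37 to 0.74. XBP1 is not particular to plasma cells and is made in other secretory cells too.

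**Figure D2:**
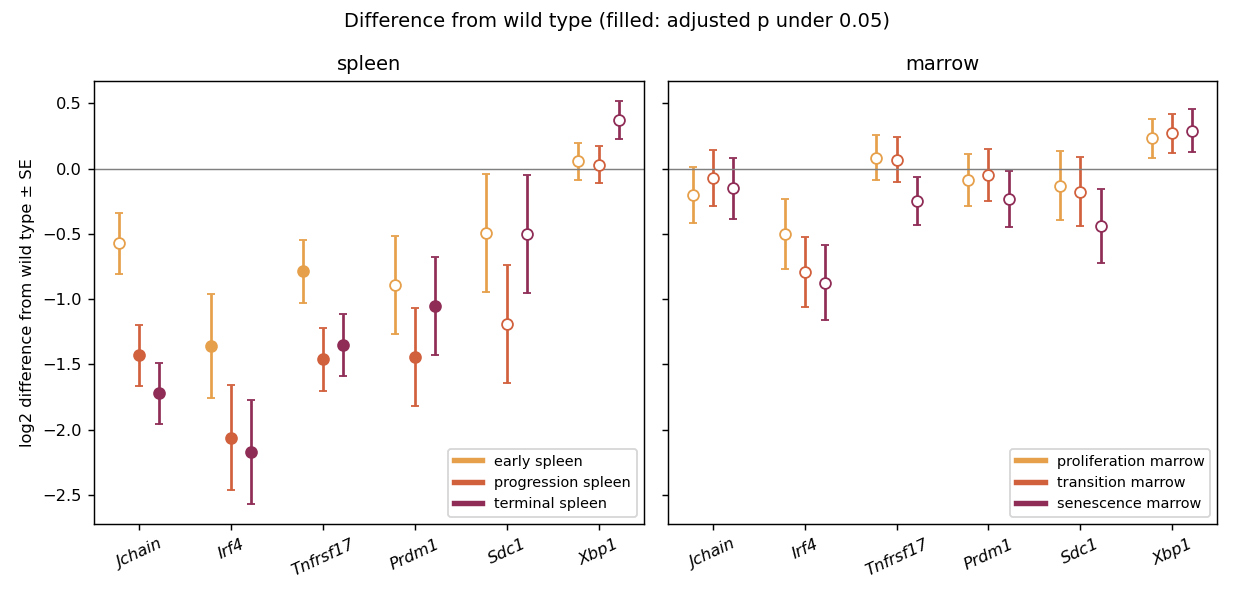
Log2 difference from wild type of the same tissue ± SE from limma for each measured member, by stage in spleen and by state in marrow; filled points have an adjusted p under 0.05. All filled points are in spleen and below 0: 2 at the early stage, 4 at progression and 4 at the terminal stage.

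By stage, 2 of 6 members fell in early spleen (8.55% of all genes lower), 4 of 6 in progression spleen (9.96%) and 4 of 6 in terminal spleen (16.3%). The early calls of Irf4 and Tnfrsf17 and the terminal call of Prdm1 were lost most often. Without the third wild-type and the first early array, which carried pancreas transcripts, neither early call passed (Irf4 -1.48, limma, adjusted p = 0.1; Tnfrsf17 -0.60, limma, adjusted p = 0.27). Tnfrsf17 lost its early call with any 1 of the 8 arrays left out, and Irf4 with 6 of them: early arrays 1 and 3 and wild-type arrays 1, 2, 4 and 5. Prdm1 at the terminal stage was lost without terminal array 1 or 2 or without any 1 of wild-type arrays 1 to 4 (limma, adjusted p = 0.059 to 0.18) and under 5 of 11 other settings (limma, adjusted p = 0.052 to 0.079), and at progression without the first or second progression array (limma, adjusted p = 0.094 and 0.09). The falls of Irf4, Jchain and Tnfrsf17 at progression and at the terminal stage kept their calls whichever array was left out, and without the third wild-type and the first early array.

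The order of the groups in spleen had wild type highest for every measured member except Xbp1. Below it came early, progression and terminal spleens for Jchain and Irf4, and early, terminal and progression spleens for Tnfrsf17, Prdm1 and Sdc1. Neighbours among the fusion stages did not pass the test for any member (limma, adjusted p = 0.21 to 1), where 0% of all genes passed between progression and early spleens and 5.86% between terminal and progression spleens. Of stages that are not neighbours in these orders, Jchain passed between terminal and early spleens, as given above. Without a call, Tnfrsf17 was lower in every progression than in every early spleen, as were 3.06% of all genes, and Xbp1 was higher in every terminal than in every progression spleen, as were 12.9%. The 24-month wild-type spleen was the highest wild-type array for Irf4, Tnfrsf17, Prdm1, Sdc1 and Xbp1 and the lowest for Jchain.

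In bone marrow, where long-lived plasma cells settle, no member passed the test in any comparison with wild type or between states. Of all genes, 0.282% passed in proliferation marrow, 0.42% in transition marrow, 0.0484% in senescence marrow and 0.662% in the mean over the states, so few genes passed anywhere in marrow. The largest difference was that of Irf4, -0.72 ± 0.22 over the 3 states (limma, adjusted p = 0.18), and the next was that of Xbp1, 0.26 ± 0.13 (limma, adjusted p = 0.41). At an unadjusted p under 0.05, limma called 0 members in proliferation marrow and 1 each in transition marrow, in senescence marrow and in the mean, which was Irf4 each time. Of all genes, 10.5% in transition marrow, 6.36% in senescence marrow, 12.5% in the mean and 9.9% in proliferation marrow passed at that unadjusted threshold. Between marrow states 0% of all genes passed.

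**Figure D3:**
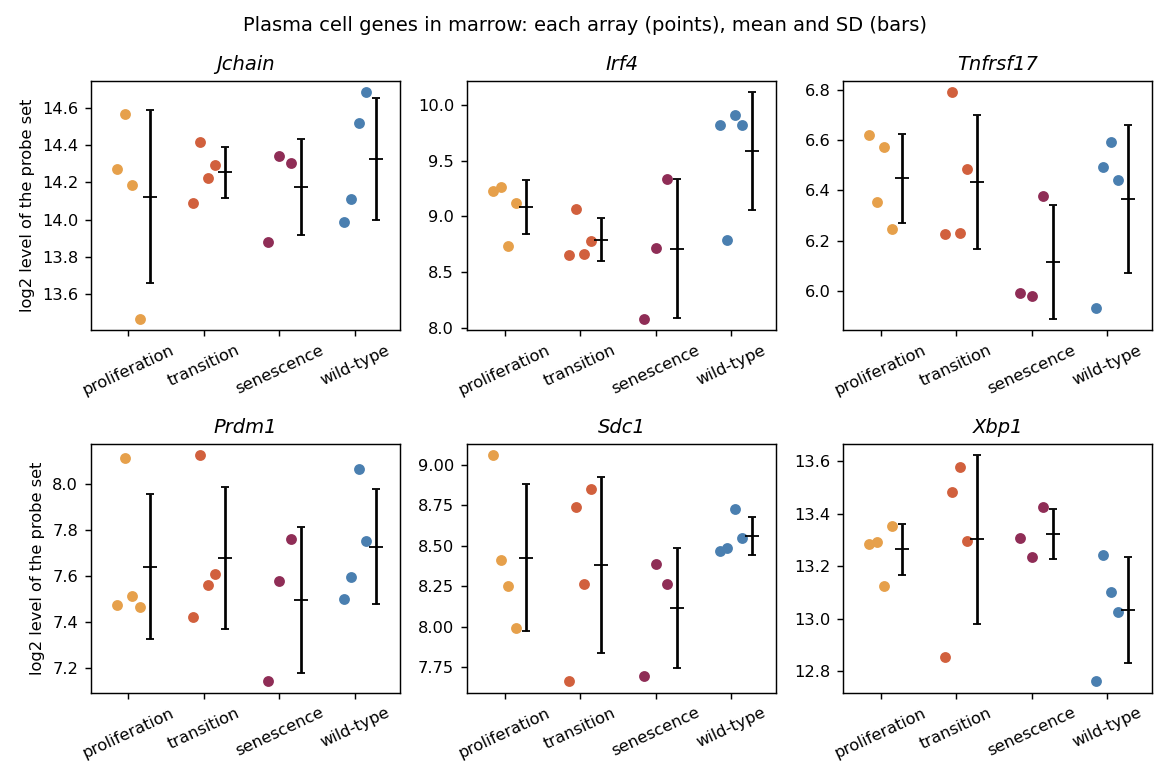
Log2 level of each measured plasma cell gene in each marrow array (points), with the group mean and SD, for proliferation, transition, senescence and wild-type marrow. The groups overlap for most members; Irf4 is the member with the widest gap between fusion and wild-type means, and 1 wild-type array lies within the fusion range.

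Jchain was at 13.47 to 14.57 in proliferation marrow, 14.09 to 14.41 in transition marrow and 13.88 to 14.34 in senescence marrow, against 13.99 to 14.68 in wild-type marrow. Its mean difference over the states was -0.14 ± 0.18 (limma, adjusted p = 0.83).

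Irf4 was at 8.73, 9.12, 9.23 and 9.26 in proliferation marrow, at 8.65, 8.66, 8.78 and 9.07 in transition marrow and at 8.08, 8.72 and 9.33 in senescence marrow, against 8.79, 9.82, 9.82 and 9.91 in wild-type marrow. The second wild-type array stood about 1 unit below the other 3, inside the range of the fusion arrays. Without it the mean difference was -0.99 (limma, adjusted p = 0.03), the only 1 of 15 fits with an array left out that passed. In the others the adjusted p from limma was up to 0.57. The dimmer Irf4 probe set, 1421174_at, differed by 0.11 over the states (limma, adjusted p = 0.86).

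Xbp1 was at 13.13 to 13.36 in proliferation marrow, 12.85 to 13.58 in transition marrow and 13.24 to 13.43 in senescence marrow, against 12.76 to 13.24 in wild-type marrow. Its difference from wild type was 0.23, 0.27 and 0.29 in the 3 states, with adjusted p-values from limma of 0.67, 0.57 and 0.84. Tnfrsf17 was at 5.98 to 6.79 in fusion marrow, against 5.93 to 6.59 in wild-type marrow, which is close to the lower quartile of that tissue (6.13 to 6.32). Prdm1 was at 7.14 to 8.12 in fusion marrow, against 7.50 to 8.07 in wild-type marrow. Sdc1 was at 7.66 to 9.06 in fusion marrow, against 8.47 to 8.73 in wild-type marrow, and its 3 senescence arrays, at 7.70, 8.27 and 8.39, all lay below wild type, as did 2.07% of all genes, without a call (-0.44, limma, adjusted p = 0.87).

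The difference between the tissues was tested directly, as the fusion effect in marrow minus that in spleen. It passed for Tnfrsf17 (1.17 ± 0.24, limma, adjusted p = 0.0015) and Jchain (1.10 ± 0.26, limma, adjusted p = 0.0051), where 8.54% of all genes passed in that direction. It did not pass for Irf4 (1.14 ± 0.40, limma, adjusted p = 0.056), Prdm1 (1.01 ± 0.35, limma, adjusted p = 0.053), Sdc1 (0.48 ± 0.43, limma, adjusted p = 0.52) or Xbp1 (0.11 ± 0.17, limma, adjusted p = 0.72). The fall of Irf4 and Prdm1 is therefore not shown to be limited to spleen. In marrow Tnfrsf17 lay at 5.93 to 6.79, close to the lower quartile of 6.13 to 6.32, where a fall could be missed. The array medians also differ between the tissues (marrow 8.11 to 8.29, spleen 6.73 to 6.90). Early spleens were sampled at 7 months, as were the proliferation marrows, but progression and terminal spleens later than any marrow, and the test treats all 29 arrays as independent.

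Several probe sets were available for Sdc1, Xbp1 and Irf4, and they did not all move alike. Of the 4 for Sdc1, 1437279_x_at fell in fusion spleen by a log2 difference of -1.38 ± 0.39 (limma over 20393 probe sets, adjusted p = 0.017). The brightest, 1415943_at, differed by -0.73, and 1415944_at by 0.02 ± 0.13 (adjusted p = 0.9) at a level of 6.09 to 6.16 in every spleen group. The remaining probe set, 1448158_at, differed by -0.27 ± 0.11 (limma, adjusted p = 0.085). The second Irf4 probe set, 1421174_at, was dim, with group means of 5.35 to 5.72 in spleen, and differed by -0.31 ± 0.19 (limma, adjusted p = 0.23). The 4 Xbp1 probe sets had differences of 0.14 to 0.38 in fusion spleen, and none passed. In terminal spleen the second brightest, 1420886_a_at, was at 12.49 ± 0.26 (SD, n = 3), against 11.74 ± 0.30 in wild-type spleen (SD, n = 5), a difference of 0.74 (limma, adjusted p = 0.01).

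**Figure D4:**
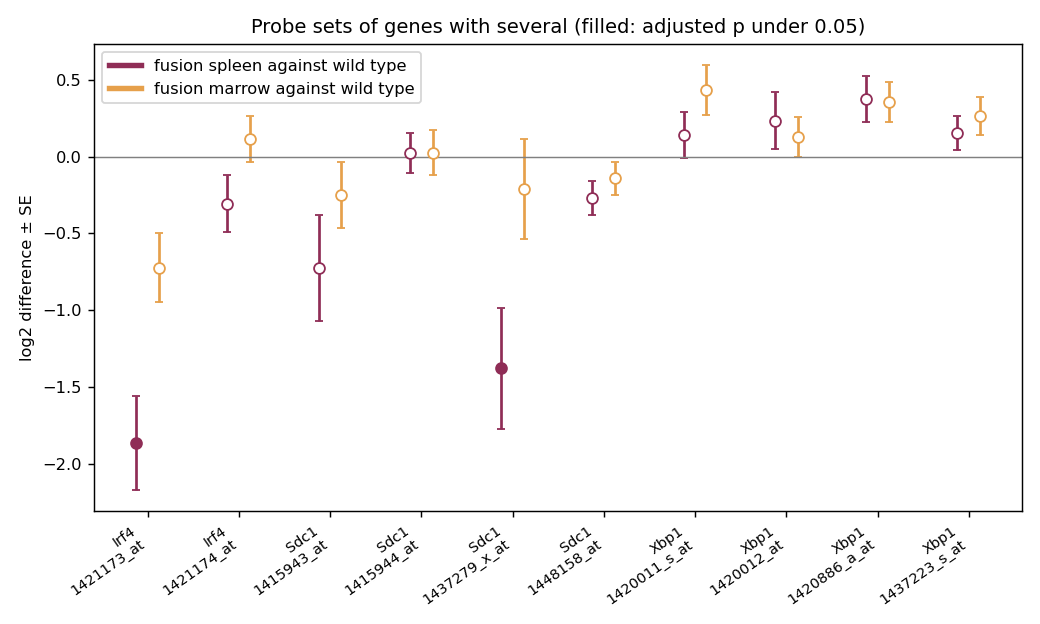
Log2 difference from wild type ± SE from limma over 20393 probe sets, for every probe set of Irf4, Sdc1 and Xbp1, with all fusion spleens and all fusion marrows averaged over their stages or states; filled points have an adjusted p under 0.05. Only 1 probe set of Irf4 and 1 of Sdc1 are filled, both in spleen, and the 4 Xbp1 probe sets lie above 0 in both tissues.

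Genes around the members were read from lists chosen with earlier results of these data known. Of 21 other plasma cell genes, 14 fell and 3 rose in fusion spleen (median -0.73, against 0.04 over all genes, of which 16.4% fell and 16% rose). Pou2af1, the B lineage coactivator, fell at progression by a log2 difference of -2.41 ± 0.38 (limma, adjusted p = 0.00058), and Tnfrsf13b, the TACI receptor for BAFF and APRIL, fell in terminal spleen by -1.02 ± 0.14 (limma, adjusted p = 6.3e-05). Cd28, a T cell costimulator that plasma cells also carry, and Cd27 fell in terminal spleen by -2.48 and -1.62. Cd93, which plasma cells share with myeloid and endothelial cells, rose 4.45-fold there (9.75 in terminal spleens, against 7.60 in wild-type spleens). The other genes that rose over the stages were Cxcr4 (0.69 ± 0.16) and Igf1r (1.23 ± 0.24), named after their values were seen.

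Of the 5 immunoglobulin genes measured, 1 fell in fusion spleen over the stages and none rose, against 16.4% and 16% of all genes. Iglv1, a lambda light chain segment, was 3.78-fold lower at progression (10.1 in progression spleens, against 12.0 in wild-type spleens; limma, adjusted p = 0.0017). Igha, the IgA heavy chain, was at 13.8 in terminal spleens, against 14.4 in wild-type spleens, a difference of -0.59 ± 0.21 (limma, adjusted p = 0.04), and the arrays of the groups overlapped. Pigr, the epithelial receptor that carries polymeric antibody and is no immunoglobulin gene, stood on the same list; its mean lay below the lower quartile of the arrays in every spleen group.

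The genes that XBP1 and the unfolded protein response are known to drive did not fall as a block. Of 31 measured, 8 rose and 5 fell in fusion spleen, with a median of 0.07. Over all genes 16% rose and 16.4% fell, so the share that fell was that of all genes. Ero1a, an oxidase that forms disulphide bonds, rose 4.02-fold in terminal spleen (2.01 ± 0.20, limma, adjusted p = 5e-06), while its relative Ero1b fell there (-0.58 ± 0.10, limma, adjusted p = 0.00031). Among the disulphide isomerases, Pdia5 rose 2.66-fold and Pdia6 1.58-fold in terminal spleen. At another stage, in early spleen, Pdia4 fell 1.85-fold and Txndc5 1.96-fold.

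The 30 genes of translocation and export from the endoplasmic reticulum were either higher or without a call, with 1 exception over the stages, Srp14. In terminal spleen 15 rose and none fell (median 0.38), and over the stages 9 rose and 1 fell. Rpn1 and Ddost, subunits of the complex that adds sugars to new proteins, rose 2.11-fold and 1.72-fold in terminal spleen, and Ssr2 and Ssr1, of the translocon-associated complex, 1.83-fold and 1.56-fold. Over all genes 18.1% rose and 16.3% fell in terminal spleen, and 16% rose and 16.4% fell over the stages.

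**Figure D5:**
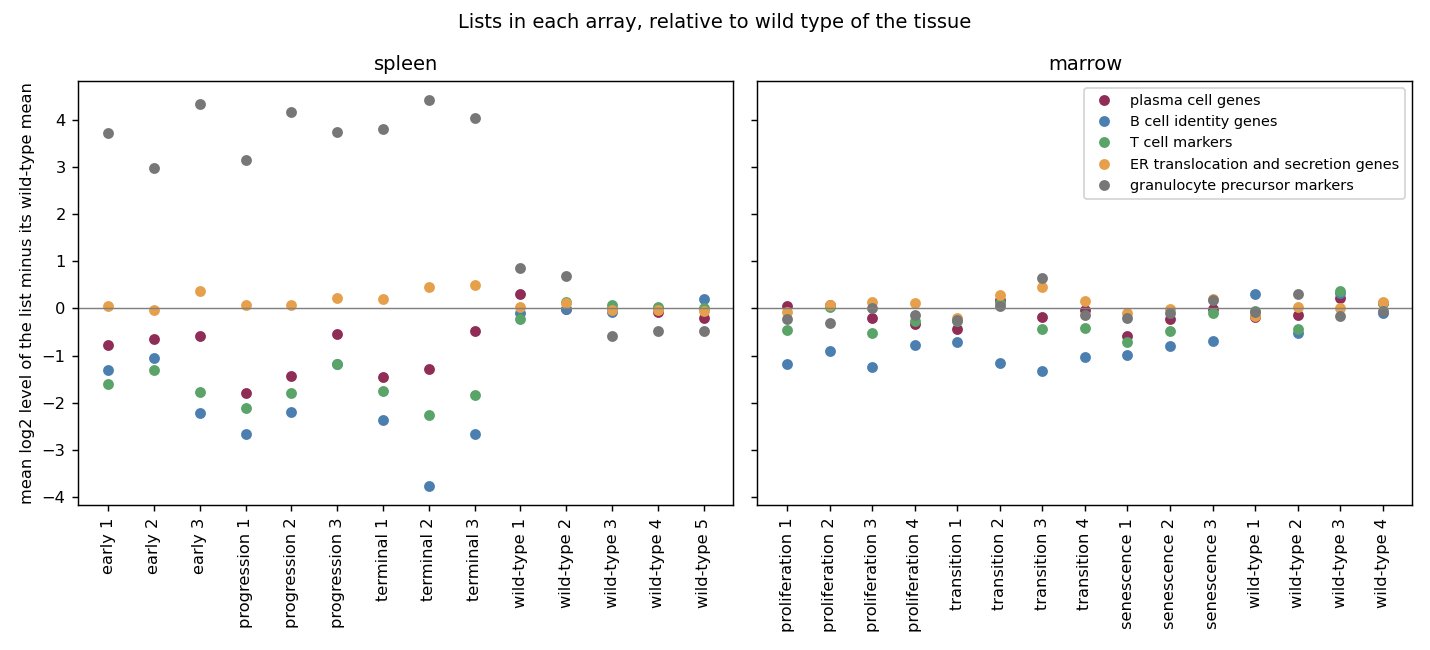
Mean log2 level of 5 lists in each array minus the mean of the wild-type arrays of that tissue. In fusion spleens the 6 measured plasma cell genes lie at -1.80 to -0.48, B cell identity genes at -3.76 to -1.06, T cell markers at -2.25 to -1.18 and granulocyte precursor markers at 2.97 to 4.41; in fusion marrow B cell identity genes lie at -1.33 to -0.69.

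B cell identity genes, many of which BLIMP1 represses in plasma cells, fell in the same spleens as the members. Of 20 measured, 17 fell and none rose in fusion spleen (median -2.36), against 16.4% and 16% of all genes. In terminal spleen Cr2, a complement receptor, was at 5.14, against 11.1 in wild-type spleen, Fcer2a (CD23) at 5.52, against 10.0, and Ebf1, a factor of the B lineage, at 4.58, against 9.09. These terminal levels are near the lower quartile of the arrays, so no fold is given. In marrow 8 of the 20 fell over the states, where 0.387% of all genes fell. Bach2, a repressor of Prdm1, fell in each marrow state, by -1.98 ± 0.27 in proliferation marrow (limma, adjusted p = 0.004), -2.07 ± 0.27 in transition marrow (limma, adjusted p = 0.0024) and -1.79 ± 0.29 in senescence marrow (limma, adjusted p = 0.044). Over the states, Pou2af1 (-1.54 ± 0.29, limma, adjusted p = 0.025) fell in marrow without a call for any member.

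Of 19 signals that maintain or steer plasma cells, 8 fell and 2 rose in fusion spleen (median -0.45), against 16.4% and 16% of all genes. Tnfrsf13c, the BAFF receptor of B cells, fell 12.0-fold in terminal spleen, Cd40 3.88-fold, and Cxcl12, the chemokine that holds plasma cells in place, was at 4.89, against 8.12 in wild-type spleen (-3.22 ± 0.60, limma, adjusted p = 0.0009). The 2 that rose, named after their values were seen, were Tnfsf13b, which encodes BAFF (8.10 in fusion spleens, against 6.16 in wild-type spleens; 1.93 ± 0.32, limma, adjusted p = 0.00041), and Il6ra (0.61 ± 0.14, limma, adjusted p = 0.0032). The fusion effect on Tnfsf13b in marrow minus that in spleen was -1.49 ± 0.38 (limma, adjusted p = 0.009).

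Markers of other cells moved in the same spleens. All 9 T cell markers fell over the stages (median -1.71), as did all 10 macrophage markers (median -1.55), 4 of 8 plasmacytoid and 3 of 8 conventional dendritic cell markers, while all 5 granulocyte precursor markers rose (median 3.82). Of all genes, 16.4% fell and 16% rose in this comparison. The T cell markers averaged 6.89 to 7.97 in fusion spleens, against 8.92 to 9.28 in wild-type spleens, so neither the members nor the B cell genes were alone in falling. Cd28 and Vcam1 stand on these marker lists as well as on those above. How far these shifts in cell make-up account for the members' falls was not tested.

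Across the 14 spleens, Jchain, Irf4, Tnfrsf17, Prdm1 and Sdc1 were correlated with each other (Pearson r = 0.58 to 0.89), whereas r of Xbp1 with them ran from -0.40 to 0.18. These values describe arrays that fall into wild-type and fusion groups and carry no test. The genes most like a member were Pik3r1 for Jchain (r = 0.95), Zfp622 for Irf4 (r = 0.97), Pou2af1 for Tnfrsf17 (r = 0.95), Etl4 and Derl3 for Sdc1 (r = 0.94 and 0.92), Ube2j1, Bhlhe40 and Epcam for Prdm1 (r = 0.95, 0.93 and 0.92), and Plscr1, Ssr4 and Sdf2l1 for Xbp1 (r = 0.90 each). Derl3 and Ube2j1 act in the disposal of misfolded proteins, Ssr4 in translocation and Sdf2l1 in folding. In the 15 marrows, the closest were Slco5a1 for Jchain (r = 0.75), Amot for Sdc1 (r = 0.91), Ms4a4b, Cd28 and Cd3g, all genes of T cells, for Prdm1 (r = 0.85, 0.83 and 0.78), Ankfy1 for Xbp1 (r = 0.96), Cdip1 for Irf4 (r = 0.89) and Scube2 for Tnfrsf17 (r = 0.80). Correlations among the members there ran from -0.37 (Irf4 and Xbp1) to 0.69 (Jchain and Prdm1).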

How the data were processed

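RNA of 15 marrow and 14 spleen samples was hybridised to Affymetrix arrays of 22690 probe sets. The deposited values are log2 probe set levels that the authors made with RMA, with the packages affy and limma, per the submitters' processing notes, with versions and filters not given in the sources used here. The medians of the arrays differ (marrow 8.11 to 8.29, spleen 6.73 to 6.90), so levels were compared within a tissue. The values hold no detection calls, and the number of arrays limits the precision.

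Of the probe sets, 20393 had 1 symbol, 691 had several and 1606 were unnamed here. The brightest per gene gave 12394 genes. Each tissue had 1 model of its 4 groups in limma 3.58.1 under R 4.3.3 (all 29 arrays and 8 groups for the tissue contrast). Benjamini-Hochberg adjustment was over all genes, with a threshold of 0.05. The fits were also run on simulated data with independent normal noise, as a check of the code only. Figures were drawn with matplotlib 3.10.9 in Python 3.11.15. No fold is given where the lower group lies within 1 unit of the lower quartile. Promoters are RefSeq's, on GRCm38.p6, and the build behind the array annotation is not given in the sources used here.

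The members and the gene lists were chosen with earlier results of these data known. Named were all members in every comparison, up to 4 genes with the smallest p of each list that passed against wild type (2 where none passed), and the 3 genes most correlated with a member, of which some are given. Alternatives covered normalization, the probe set, a filter, the fit, weights, covariates and left-out arrays.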

Additional observations from a re-analysis of the deposited data

Results flagged for a closer look

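Prdm1 in the second proliferation marrow was at 8.11, far from the other 3 arrays of its group (ratio of gap to range 0.93, n = 4). Irf4 in the second wild-type marrow was at 8.79, far below the other 3 (ratio 0.92, n = 4). Chance alone flags about 1 in 20 groups, and 24 groups were looked at. The fusion effect in marrow minus that in spleen differed from 0 for Jchain (1.10, limma, adjusted p = 0.0051) and for Tnfrsf17 (1.17, limma, adjusted p = 0.0015). In marrow Tnfrsf17 lay close to the lower quartile of the arrays.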

How the results depend on the processing

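Each result was recomputed under 12 or fewer other settings, or up to 14 where single probe sets were added, and with each array left out. Among the other settings 948 values kept direction and side of the threshold, 29 passed it newly, 17 lost it and 37 changed sign. With 1 array left out, 776 kept both, 19 passed newly, 25 lost it and 50 changed sign. No called fall in spleen changed sign. The cause was not tested where a call moved.

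The replicate numbers in the labels were not used as pairs: same-numbered arrays deviated together with a median r of 0.093 in marrow (-0.43 to 0.55, 21 pairs) and 0.0077 in spleen (-0.32 to 0.23, 18 pairs). With the replicate block, 0 members passed in early spleen, Prdm1 lost its terminal call (-1.21), and Xbp1 was at -0.032 in early and -0.057 in progression spleen.

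Members called in early spleen numbered 2, against 4 with only the groups compared or array weights, 1 with only genes above the median level (3 members tested), with the mean of all probe sets or with the second brightest probe set, and 0 without the arrays with fat, muscle or pancreas signal. Genes above the median level gave 2 at progression and 2 over the stages, since Tnfrsf17, Prdm1 and Sdc1 drop out. Array weights gave 1 in proliferation marrow, 2 in transition marrow and 2 over the marrow states (Irf4 at -0.69, -0.82 and -0.89, and Xbp1), 1 between progression and early, 2 between terminal and early, and 4 in the tissue contrast. The Xist and the Gapdh covariate gave 0 between terminal and early spleen, and Gapdh gave 4 in the tissue contrast. With each array left out, counts ran from 0 to 1 in early spleen, over the marrow states, in progression against early and in terminal against progression spleen, from 0 to 2 in terminal against early, and from 2 to 4 in the tissue contrast. These counts stand without the share of all genes under the same setting and are not read as results about the members.

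With the second brightest probe set, Irf4 was at 0.10 in proliferation marrow, 0.25 in transition marrow, 0.11 over the states and 0.15 in transition against proliferation, Sdc1 at 0.021 in proliferation marrow, 0.087 in senescence against transition, 0.046 in early and in progression spleen, 0.024 over the stages and -0.064 in terminal against progression, and Xbp1 at 0.048 in progression against early and -0.022 in the tissue contrast. Single probe sets, added after seeing the data, gave 0.024 in spleen and 0.025 in marrow for Sdc1 1415944_at and 0.11 for Irf4 1421174_at in marrow. With array weights Tnfrsf17 was at -0.058 in proliferation marrow and 0.23 in transition against proliferation, Prdm1 at 0.066 and Sdc1 at 0.0073 in transition marrow, Sdc1 at 0.32 in transition against proliferation, Xbp1 at -0.14 in senescence against transition and 0.016 in progression against early, and Irf4 at 0.092 in terminal against progression. Renewed quantile normalization put Tnfrsf17 at 0.0042 over the marrow states and Sdc1 at 0.013 in terminal against early, and median centring put Xbp1 at 0.021 in progression against early. With the Gapdh covariate Tnfrsf17 was at -0.034 in transition marrow, Xbp1 at -0.047 in transition against proliferation, and Prdm1 and Sdc1 at 0.18 and 0.38 in terminal against early. With Xist, Jchain was at 0.057 in senescence against transition and Sdc1 at 0.10 in terminal against early. Without the arrays with fat, muscle or pancreas signal, transition against proliferation was -0.018 for Prdm1, 0.16 for Sdc1 and 0.042 for Tnfrsf17.

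Of differences that changed sign with an array left out, none was called. In proliferation marrow against wild type, values ran from -0.35 to 0.015 for Jchain, -0.24 to 0.026 for Prdm1, -0.34 to 0.015 for Sdc1 and -0.060 to 0.16 for Tnfrsf17. In transition marrow against wild type, values ran from -0.18 to 0.048 for Jchain, -0.20 to 0.064 for Prdm1, -0.33 to 0.063 for Sdc1 and -0.075 to 0.14 for Tnfrsf17. In fusion marrow mean, values ran from -0.18 to 0.043 for Tnfrsf17. In transition marrow against proliferation marrow, values ran from -0.086 to 0.28 for Jchain, -0.11 to 0.20 for Prdm1, -0.20 to 0.19 for Sdc1, -0.13 to 0.054 for Tnfrsf17 and -0.054 to 0.19 for Xbp1. In senescence marrow against transition marrow, values ran from -0.39 to 0.23 for Irf4, -0.16 to 0.067 for Jchain and -0.13 to 0.11 for Xbp1. In senescence marrow against proliferation marrow, values ran from -0.17 to 0.20 for Jchain and -0.28 to 0.029 for Prdm1. In early spleen against wild type, values ran from -0.12 to 0.21 for Xbp1. In progression spleen against wild type, values ran from -0.0061 to 0.094 for Xbp1. In progression spleen against early spleen, values ran from -0.18 to 0.15 for Xbp1. In terminal spleen against progression spleen, values ran from -0.63 to 0.39 for Irf4, -0.59 to 0.085 for Jchain, -0.021 to 0.99 for Prdm1 and -0.23 to 0.38 for Tnfrsf17. In terminal spleen against early spleen, values ran from -0.41 to 0.079 for Prdm1 and -0.63 to 0.40 for Sdc1.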
